A study of Mus musculus with 24 samples.

Results

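The collagen genes of mouse visceral fat are described here across 24 RNA sequencing libraries. Members were the rows of the raw count table whose symbol is a collagen chain (Col, a type number, the letter a and a chain number) with at least 10 counts in 4 or more libraries. Of 44 such rows, 39 met the rule and all 39 were tested, out of 27179 genes in the table and 17824 tested. They comprise 10 fibrillar genes, 6 basement membrane genes (the Col4 chains) and 23 others. The 5 rows below the rule were Col2a1, Col9a1, Col9a2, Col10a1 and Col25a1.

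The libraries came from total perigonadal fat of mice aged 27 to 33 weeks, in 6 groups of 4. Controls carried the Foxp3cre allele alone, which drives Cre recombinase in Foxp3-expressing cells, the regulatory T cells. The genotype PpargFoxp3cre adds the conditional knockout of Pparg in those cells, and TbetFoxp3cre that of Tbet, whose gene is Tbx21. All groups therefore share the Foxp3cre allele, and females and males of each genotype form separate groups. Each group holds 2 libraries of each of 2 batches: replicates 1 and 3 are batch 1 and replicates 2 and 4 batch 2, by the titles. No label ties a library to an animal of its own, and the p-values therefore rest on differences among libraries, which may be technical in part.

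Collagens are the main structural proteins of the extracellular matrix, and each molecule is a trimer of chains with a shared triple helix. Fibrillar collagens such as types I, III and V form the fibrils of the connective tissue between cells. Type IV collagen builds the sheet of the basement membrane, which in fat surrounds every adipocyte and every capillary. Type VI collagen forms beaded filaments next to that sheet and is an abundant collagen of adipose tissue, and other types sit on fibril surfaces, in networks or in cell membranes. Newly made chains are hydroxylated and folded in the endoplasmic reticulum, trimmed outside the cell and cross-linked by lysyl oxidases, and matrix metalloproteinases degrade them.

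Library totals ranged from 8345575 to 31022845 counts. Levels are in CPM, each count divided by its library's TMM-adjusted total, and a gene was called at a Benjamini-Hochberg adjusted p under 0.05 over all genes tested. Adipocyte markers (Adipoq, Plin1, Lep, Cidec, Retn and Fabp4) were present in all libraries, with a summed level from 4408 CPM in control female replicate 1 to 41732 CPM. That library also stood apart in 8 epithelium markers, which summed to 1340 CPM there and to between 7.72 and 382 CPM in the others. Tbet knockout male replicate 4 stood apart in 8 markers of the male reproductive tract, at 4783 CPM against at most 41.4 CPM elsewhere. Collagen results that rest on either library are given with and without both, or with that library's own level. The targeted genes do not check the genotype in whole fat, where other cells express them: Pparg ranged from 128 to 285 CPM in its knockouts and from 63.6 to 363 CPM in controls, and Tbx21 from 0.101 to 2.64 CPM in its knockouts and from 0.44 to 1.75 CPM in controls. Fewer cells of a type and less RNA per cell cannot be told apart in bulk tissue.

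Levels between genes were compared on the deposited log2 FPKM scale, which is per length and holds 36 of the 39 members (Col11a1, Col24a1 and Col26a1 are outside it). Col3a1, the chain of type III collagen, had the highest mean, 7.87 ± 0.55 log2 FPKM (SD over all 24 libraries). The type IV chains Col4a1 and Col4a2 followed at 7.71 ± 0.80 and 7.29 ± 0.86, and the type VI chains Col6a2 and Col6a1 at 7.21 ± 0.35 and 7.14 ± 0.42. Neighbours in this order lay closer to each other than their SD. Next came Col15a1, a basement membrane zone collagen (6.89 ± 0.67), and the chains of type I collagen, Col1a2 (6.79 ± 0.39) and Col1a1 (6.47 ± 0.62). The minor fibrillar chains of type V, Col5a3, Col5a2 and Col5a1, averaged 6.08, 5.07 and 4.99 log2 FPKM, the basement membrane collagen Col18a1 averaged 5.28, and Col6a3, the remaining main type VI chain, 4.67.

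The remaining type IV chains were far lower. Col4a5 and Col4a6, which make another type IV trimer, averaged 2.56 and 1.43 log2 FPKM, and Col4a4 and Col4a3, best known from the kidney glomerulus, −0.29 and −0.45. Among the 36 members on this scale, the lowest were Col19a1, a fibril-associated collagen (−5.04), and Col22a1 of tissue junctions (−3.77). Next were Col17a1 of epithelial hemidesmosomes (−1.79), the minor fibrillar chain Col11a2 (−1.46) and Col7a1 of epithelial anchoring fibrils (−1.34). Col26a1, Col24a1 and Col11a1, which are outside it, averaged 0.50, 0.66 and 0.68 CPM. Col17a1, Col11a2 and Col7a1 averaged more, 1.66, 2.41 and 4.49 CPM. The widest spreads over libraries were those of Col6a4 (SD 2.37 log2 FPKM) and Col6a5 (2.34), alternative chains of type VI collagen. The summed level of all members was 7604 ± 3184 CPM in control females and 10913 ± 2798 CPM in control males (SD, n = 4). Control female replicate 1 had 3900 CPM and replicates 2 to 4 had 10475, 6007 and 10033 CPM. Control males had 9420, 13773, 7765 and 12693 CPM, with overlap.

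**Figure D1:**
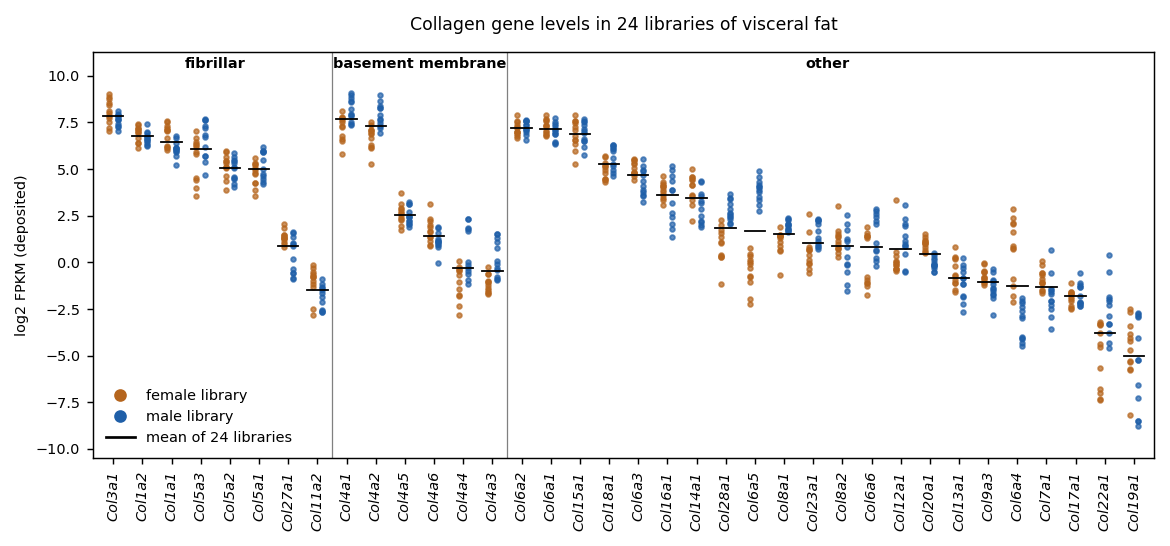
Deposited log2 FPKM of 36 collagen genes (vertical axis) in each of 24 libraries, females in brown and males in blue, with the mean of all libraries as a bar and the genes ordered by mean within each class. Col3a1 at 7.87 and Col4a1 at 7.71 have the highest means, and the male points of Col6a5 all lie above its female points.

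Collagen genes differed between the sexes in all 3 genotypes. In controls, 10 of 39 members were higher in males and 6 lower (edgeR quasi-likelihood test), while 13.6% of all genes tested were called higher and 13.6% lower (27.2% in all). In Pparg knockouts 3 members were higher in males and 2 lower, against 3.59% and 5.18% of all genes (8.77% in all). In Tbet knockouts 5 were higher and 3 lower, against 3.93% and 5.38% of all genes (9.31% in all). The median log2 fold change of the 39 members, male over female, was −0.24 in controls, −0.15 in Pparg knockouts and 0.24 in Tbet knockouts, where the median of all genes was −0.04, 0.01 and 0.03. Col6a5, Col6a6 and Col28a1 were called higher in males, and Col6a4 and Col20a1 lower, in each genotype. Without control female replicate 1 and Tbet knockout male replicate 4, 16, 11 and 11 members were called in the same order of genotypes.

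The counts within the knockouts moved with single libraries. The 5 calls of the Pparg knockouts became 2 without female replicate 1, male replicate 1 or male replicate 3, and 8 without male replicate 2. The 8 calls of the Tbet knockouts became 4 without female replicate 1, 2 without female replicate 2 or male replicate 2, and 3 without male replicate 3. The 16 calls in controls became 10 without control female replicate 3. Within batch 1 alone the 3 genotypes gave 18, 10 and 1 calls, and within batch 2 alone 9, 0 and 5. The shares of all genes called under each alternative are not given here, so these counts describe only how stable the calls were.

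The largest control differences in either direction were those of Col6a5 and Col6a4, which neighbour each other and Col6a6. Col6a6, Col6a5 and Col6a4 encode alternative chains that can take the place of Col6a3 in the type VI trimer. They lie side by side on chromosome 9 of GRCm38, at 105689417 to 105828246, 105856070 to 105962463 and 105990318 to 106096828, all on the minus strand.

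Col6a5 was low in females and high in males. In control females, replicates 1 to 4 had 9.4, 8.02, 1.7 and 9.94 CPM, and in control males 112, 217, 102 and 125 CPM. In Pparg knockouts the females had 2.21, 15.7, 5.39 and 12.4 CPM and the males 153, 64.7, 174 and 259 CPM. In Tbet knockouts the females had 5.49, 11.5, 4.14 and 9.36 CPM and the males 138, 148, 80.2 and 169 CPM. The lowest male library was thus above the highest female library across genotypes, with no overlap. The log2 fold change was 4.28 ± 0.51 (SE) in controls (19.4-fold, adjusted p = 2.7e-05), 4.39 ± 0.51 in Pparg knockouts (20.9-fold, adjusted p = 7.97e-05) and 4.22 ± 0.51 in Tbet knockouts (18.6-fold, adjusted p = 7.8e-05). Each call held when any library was left out, and of all alternatives run only batch 2 alone ended a call, that of the Pparg knockouts (3.54, adjusted p = 0.0593).

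Col6a6 went the same way with a smaller difference. Its mean was 11.7 ± 8.41 CPM in control females and 27.4 ± 24.6 CPM in control males (SD, n = 4), and the batches lay far apart within both groups. Batch 1 females of the 3 genotypes had from 2.07 to 5.81 CPM and batch 1 males from 5.99 to 14.6 CPM. Batch 2 females had from 18 to 27.6 CPM and batch 2 males from 29.7 to 53.4 CPM, so that the sexes did not overlap within either batch. Its difference on the log2 scale was 0.96 ± 0.28 in controls (adjusted p = 0.0178), 1.42 ± 0.29 in Pparg knockouts (0.00549) and 1.2 ± 0.29 in Tbet knockouts (0.0129). The control call was lost without control female replicate 3 or control male replicate 2 (adjusted p up to 0.0586), and all 3 calls were lost without a batch term. In batch 1 alone Col6a6 had 0.45 in controls (adjusted p = 0.388) and 1.45 in Tbet knockouts (0.0941), and in batch 2 alone 0.74 in Pparg knockouts (0.153).

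Col6a4 was the reverse. Replicates 1 to 4 had 49.5, 1.83, 32.2 and 13 CPM in control females and 1.51, 0.617, 0.941 and 0.584 CPM in control males. Pparg knockout females had 39, 4.14, 12.8 and 1.76 CPM and males 1.03, 0.168, 1.63 and 1.45 CPM. Tbet knockout females had 31.5, 22.7, 2.86 and 12 CPM and males 0.405, 0.746, 0.71 and 2.38 CPM. Females varied widely, but within each genotype the lowest female was above the highest male. Males over females, the log2 fold change was −4.51 ± 1.0 in controls (adjusted p = 0.00329), −3.45 ± 0.97 in Pparg knockouts (0.032) and −3.92 ± 0.98 in Tbet knockouts (0.0167). The calls in the knockouts were each lost when any of 4 libraries was left out (adjusted p up to 0.133 and 0.0626), and limma voom called none of the 3. Its annotated exons overlap the genes Gm36993 and Gm47575 on the other strand, and the strand setting of the counting is not given in the sources used here.

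Col28a1, a collagen with a domain layout like that of type VI and known from peripheral nerve, was higher in males. Control females had 2.68, 8.26, 5.15 and 12.1 CPM and control males 25.7, 29.7, 38.6 and 24.1 CPM, with no overlap. Its log2 fold change was 2.23 ± 0.45 in controls (adjusted p = 0.00177), 1.56 ± 0.45 in Pparg knockouts (0.0345) and 1.63 ± 0.44 in Tbet knockouts (0.0243). The control call held in all alternatives run, the Pparg knockout call was lost in 4 of 8 fits that left out a library (adjusted p up to 0.161), and the Tbet knockout call in 3 of 8 (up to 0.085). In batch 2 alone the Pparg knockout difference of Col28a1 was 0.41 (adjusted p = 0.594), and it was not called by either limma fit or without a batch term.

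Col20a1, a member of the fibril-associated collagens, was lower in males. Control females had 12.8, 6.2, 8.58 and 11.5 CPM and control males 5.47, 4.32, 2.92 and 3.72 CPM. All 12 females of the 3 genotypes had at least 5.9 CPM and all 12 males at most 5.47 CPM. Its log2 fold change was −1.26 ± 0.26 in controls (adjusted p = 0.00211), −1.0 ± 0.26 in Pparg knockouts (0.0223) and −1.02 ± 0.26 in Tbet knockouts (0.0193). Leaving out a library ended the call in 3 of 8 fits in Pparg knockouts (adjusted p up to 0.0957) and in 4 of 8 in Tbet knockouts (up to 0.0651).

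**Figure D2:**
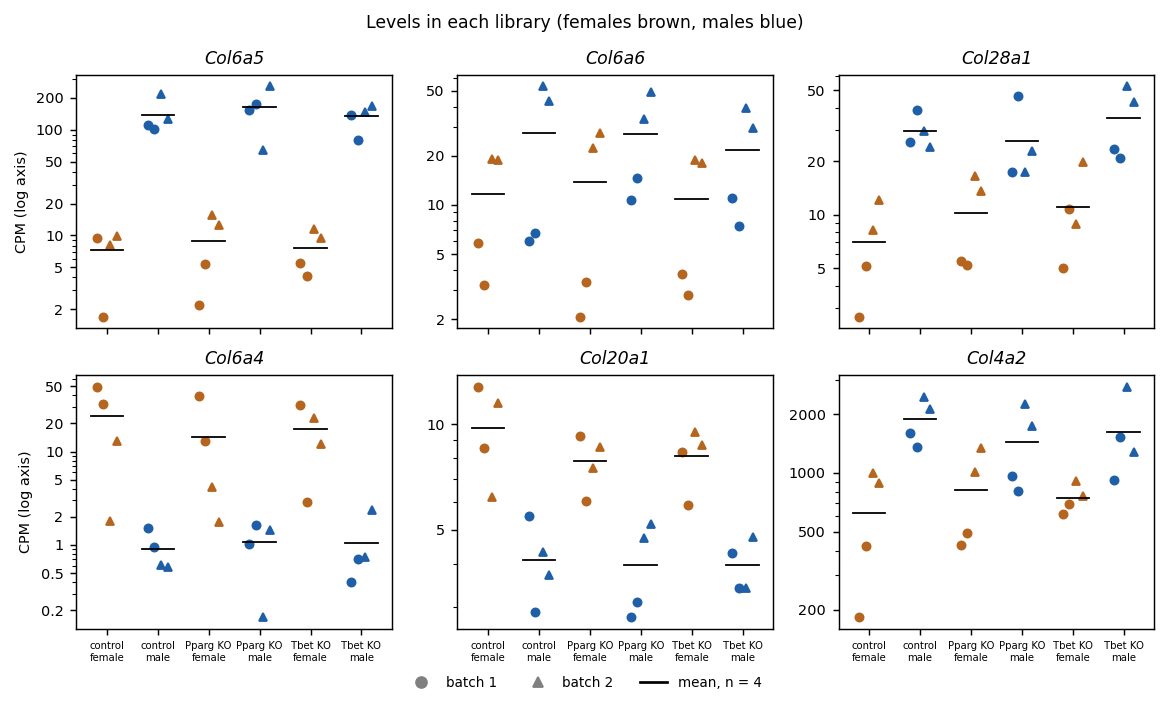
CPM on a log axis of 6 collagen genes in each library of the 6 groups, females in brown and males in blue, batch 1 as circles, batch 2 as triangles and the group mean of 4 as a bar. Males lie above all females for Col6a5 and below all females of their genotype for Col6a4, and batch 2 lies above batch 1 in every group for Col6a6.

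Promoter windows of the 3 genes called higher in males in each genotype are shown because these genes shared that call. Whether they are regulated together was not tested. The windows are the bases before the start site in the RefSeq promoter table of GRCm38.p6, less annotated exon, all read from the minus strand: Col6a5 at chr9:105960644-105960893, Col6a6 at chr9:105828161-105828335 and Col28a1 at chr6:8192618-8192867. Their start sites, at 105960643, 105828085 and 8192617, lie inside the annotated genes, which begin at 105962463, 105828246 and 8193709 on this strand. The Col6a5 and Col28a1 windows thus lie within their genes, and the Col6a6 window spans the start of its gene. Capitals mark the letters GGTCA, the core letters bound by the oestrogen receptor and other nuclear receptors, or TGACC on the other strand.
Col6a5: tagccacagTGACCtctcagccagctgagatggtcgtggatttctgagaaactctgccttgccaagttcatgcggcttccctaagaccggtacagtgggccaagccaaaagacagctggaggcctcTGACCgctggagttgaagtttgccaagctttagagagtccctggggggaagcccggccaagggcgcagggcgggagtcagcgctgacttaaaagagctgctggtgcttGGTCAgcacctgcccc
Col6a6: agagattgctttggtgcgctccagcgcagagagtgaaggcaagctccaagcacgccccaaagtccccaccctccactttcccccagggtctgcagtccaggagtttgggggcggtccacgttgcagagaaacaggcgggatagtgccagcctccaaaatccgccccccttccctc
Col28a1: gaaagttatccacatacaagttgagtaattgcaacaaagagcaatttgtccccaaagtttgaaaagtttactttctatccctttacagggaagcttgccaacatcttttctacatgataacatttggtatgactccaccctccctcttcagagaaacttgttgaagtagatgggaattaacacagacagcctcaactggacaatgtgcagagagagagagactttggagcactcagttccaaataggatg

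The Col6a5 window holds 3 such matches, and 1.51% of 32817 promoter windows of 250 bases in the same table hold 3 or more. Col24a1 also has 3, and the other windows shown hold none. At least 1 match on either strand is found in 12 of the 31 members with a window and in 35.2% of all windows. The androgen receptor core AGAACA was in 1 member, Col20a1 (16.1% of all windows). The full elements of the oestrogen receptor, the androgen receptor and PPAR receptors were in no member (0.064%, 0.00914% and 0.0335% of all windows). TATAAA was in 4 members (12.4% of all windows) and CCAAT in 11 (33.8%). Both strands were searched, GGTCA matches include those inside longer elements, and a match is a description of the letters only. The Col28a1 window has 40.4% G and C and no CG pair, where the median window has 52.4% and 6.

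Of the 6 basement membrane collagen genes, 2 were called higher in males in controls (13.6% of all genes), 0 in Pparg knockouts (3.59%) and 2 in Tbet knockouts (3.93%). None was called lower, where 13.6%, 5.18% and 5.38% of all genes were. Col4a1 and Col4a2, the chains of the common type IV trimer, stood at 268, 1739, 550 and 1409 CPM and at 183, 994, 423 and 885 CPM in control females. In control males they stood at 1962, 2950, 1784 and 2864 CPM and at 1606, 2456, 1355 and 2123 CPM, so that no male library overlapped a female one. The log2 fold change of Col4a2 was 1.76 ± 0.30 in controls (3.38-fold, adjusted p = 0.000471), and the call held in all alternatives run. It was 1.06 ± 0.29 in Tbet knockouts (adjusted p = 0.027, up to 0.111 with a library left out) and 0.85 ± 0.29 in Pparg knockouts (0.0724). The log2 fold change of Col4a1 was 1.48 ± 0.30 in controls (2.79-fold, adjusted p = 0.00173), 0.73 ± 0.29 in Pparg knockouts (0.118) and 0.80 ± 0.29 in Tbet knockouts (0.0919). Both genes sit head to head on chromosome 8 (11198423 to 11312889 and 11312805 to 11449287) and share a short stretch of annotated exon.

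The summed level of the 6 Col4 genes was 1695 ± 1040 CPM in control females and 4357 ± 1129 CPM in control males (SD, n = 4). Control female replicate 1 had 595 CPM and replicates 2 to 4 had 2779, 1048 and 2356 CPM. Control males had 3617, 5544, 3192 and 5073 CPM. Col4a5 and Col4a6 had lower means in control males than in control females, 37.7 against 44.9 CPM and 14.3 against 26.7 CPM, and neither was called (−0.34 ± 0.34, adjusted p = 0.482, and −0.98 ± 0.44, adjusted p = 0.104). The female means rest in part on control female replicate 1, the highest of its group for both (74 and 53.4 CPM). For Col4a5, control female replicates 2 to 4 had 1.97, 2.85 and 2.43 log2 FPKM. Control males had 2.22, 3.12, 2.19 and 2.46, with overlap. In Pparg knockouts the sum of the 6 genes was 2047 ± 1060 CPM in females and 3396 ± 1552 CPM in males, and in Tbet knockouts 1909 ± 393 CPM and 3698 ± 1766 CPM. Col4a4 was called in Tbet knockouts (1.97 ± 0.58, adjusted p = 0.0381), where females had 1.44, 3.95, 2.09 and 8.05 CPM and males 7.24, 27.7, 4.83 and 25.9 CPM, with overlap. That call was lost whichever library was left out (adjusted p from 0.0556 to 0.116). Col18a1, the collagen from which endostatin is cut, was higher in control males (1.03 ± 0.21, adjusted p = 0.00197). Col15a1, its relative, was not called in controls (0.36 ± 0.33, adjusted p = 0.447).

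The main fibrillar chains were not called between the sexes in any genotype. Col1a1 had 526, 327, 617 and 360 CPM in control females and 445, 487, 274 and 332 CPM in control males, and the groups overlapped. Its log2 fold change was −0.24 ± 0.30 (adjusted p = 0.575), that of Col1a2 0.05 ± 0.22 (0.882) and that of Col3a1 −0.29 ± 0.28 (0.471). In batch 2 alone Col3a1 was called lower in control males (−1.02, adjusted p = 0.0381), with 2673 and 2400 CPM in females and 1286 and 1207 CPM in males. In the knockouts Col1a1 had −0.77 ± 0.30 (Pparg, 0.112) and −0.87 ± 0.30 (Tbet, 0.0738). Of the minor fibrillar chains, Col5a1 and Col5a3 of type V were higher in control males (0.84 ± 0.24, adjusted p = 0.0146, and 1.59 ± 0.51, adjusted p = 0.0258), and Col11a2 and Col27a1 were lower (−1.83 ± 0.48, adjusted p = 0.00894, and −1.30 ± 0.42, adjusted p = 0.0274). Col5a2 was not called (0.23 ± 0.26, adjusted p = 0.536). The summed level of the 10 fibrillar genes was 3478 ± 1304 CPM in control females and 3623 ± 890 CPM in control males. Control female replicate 1 had 1868 CPM and replicates 2 to 4 had 4621, 2971 and 4450 CPM.

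Among the main type VI chains, none was called in any genotype between sexes: in controls Col6a1 had 0.14 ± 0.20 (adjusted p = 0.636), Col6a2 0.64 ± 0.25 (0.0611) and Col6a3 −0.55 ± 0.34 (0.232). Of the other networks and linkers, Col8a1, a short-chain collagen of vessel walls, was higher in control males (1.21 ± 0.27, adjusted p = 0.00327). Col14a1, which coats fibrils, was lower in males of controls (−0.95 ± 0.28, adjusted p = 0.0186) and Tbet knockouts (−0.94 ± 0.28, 0.0424), calls that were lost in 2 and 6 of 8 fits with a library left out (adjusted p up to 0.0957 and 0.136). Col7a1 was lower in control males (−1.92 ± 0.63, adjusted p = 0.0303) and Col22a1 higher (3.85 ± 1.25, adjusted p = 0.0274), both from few counts. Control male replicate 1 held 7.31 CPM of Col22a1 and the other control males at most 0.988 CPM, and without that library the difference was 1.97 (adjusted p = 0.215).

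Of the 16 control calls, 4 were lost without the 2 libraries that stand apart. Without control female replicate 1 and Tbet knockout male replicate 4, Col5a3 (1.38, adjusted p = 0.0564), Col7a1 (−1.21, 0.0771), Col22a1 (3.52, 0.06) and Col27a1 (−1.14, 0.0651) were not called, and the other 12 of 16 were. Other single control libraries ended these 4 calls too: female replicate 3 for each of them, male replicate 1 for Col7a1, Col22a1 and Col27a1, male replicate 3 for Col7a1 and Col27a1, male replicate 4 for Col5a3 and Col7a1, and female replicate 4 for Col22a1. In batch 2 alone Col27a1 had −0.31 (adjusted p = 0.603), Col7a1 −0.35 (0.787) and Col22a1 1.14 (0.592). Leaving out any of 8 control libraries in turn kept the calls of Col4a1, Col4a2, Col5a1, Col6a4, Col6a5, Col8a1, Col11a2, Col18a1, Col20a1 and Col28a1. In batch 2 alone Col4a1 (0.89, adjusted p = 0.124), Col8a1 (0.42, 0.148), Col11a2 (−0.65, 0.354), Col20a1 (−1.13, 0.0613) and Col6a4 (−3.60, 0.0989) were not called. Col5a1 was called in neither batch alone (adjusted p = 0.0547 and 0.0586). Without a batch term the calls of Col4a1, Col5a1, Col11a2 and Col18a1 were lost as well.

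**Figure D3:**
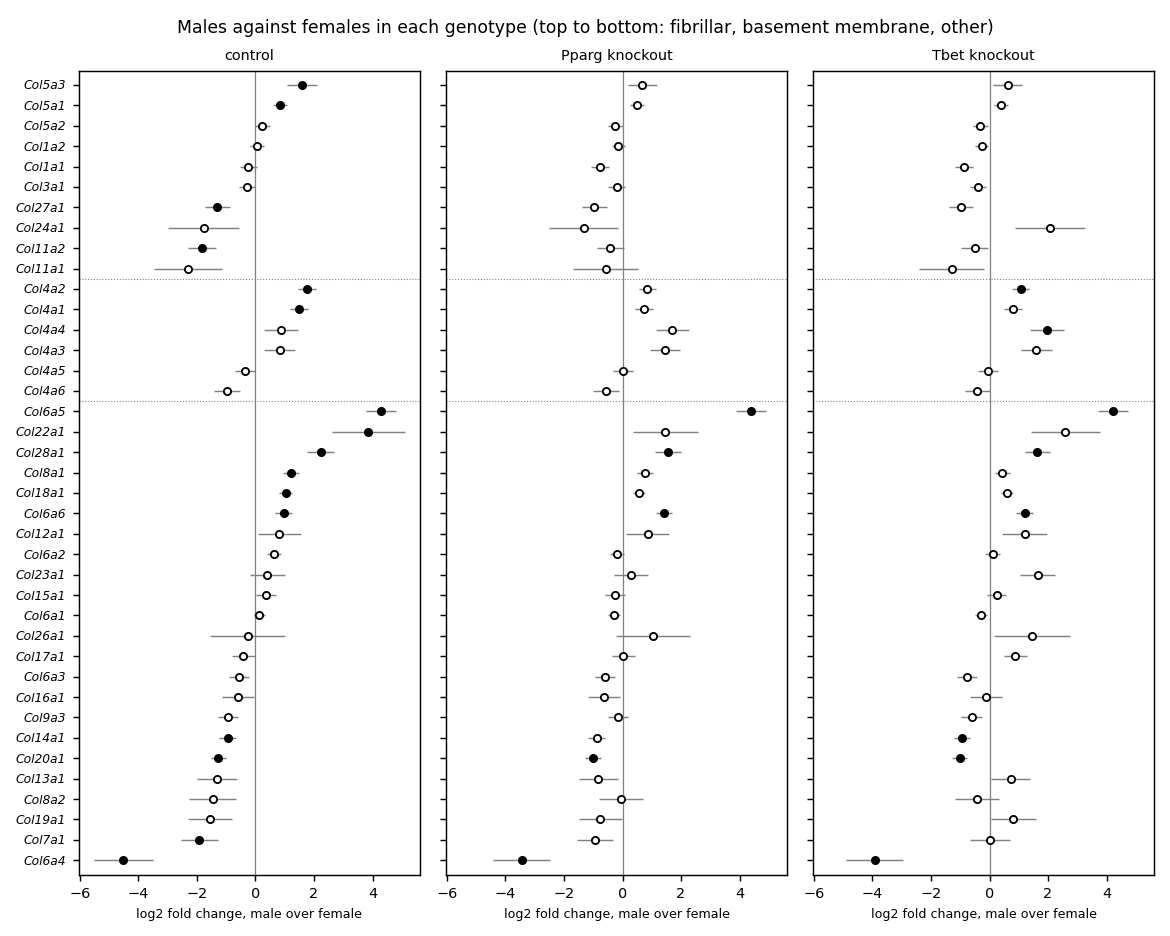
Log2 fold change of males over females (horizontal axis, with SE bars) of all 39 collagen genes in controls, Pparg knockouts and Tbet knockouts, with filled points for an adjusted p under 0.05. Col6a5 lies between 4.22 and 4.39 and Col6a4 between −4.51 and −3.45 in the 3 panels.

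The machinery around the collagens differed between sexes in both directions in controls. Of 31 genes of collagen maturation, 8 were higher and 8 lower in males, where 13.6% of all genes were called higher and 13.6% lower. Sparc, a collagen chaperone of the matrix (2.11 ± 0.34), the cross-linking enzyme Lox (1.99 ± 0.33) and the hydroxylases Plod1 (1.08 ± 0.22) and P3h1 (0.72 ± 0.18) were higher. The procollagen protease Adamts3 (−2.08 ± 0.36), P4ha1 (−0.54 ± 0.11) and Plod2 (−1.67 ± 0.34) were lower, as was P4ha3, with 0.74 to 5.5 CPM in control females and at most 0.0943 CPM in control males. Of 14 turnover genes, 4 were higher, among them the collagen uptake receptor Mrc2 (2.05 ± 0.33), the inhibitors Timp4 (2.37 ± 0.39) and Timp1 (1.97 ± 0.58) and the macrophage elastase Mmp12 (7.27 ± 1.24), and 3 were lower, Mmp3 (−3.64 ± 0.65), Mmp14 (−1.42 ± 0.41) and Mmp2 (−1.12 ± 0.35).

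The lists that follow are read against the same 13.6% of all genes called higher and 13.6% called lower. Of 13 partners of basement membrane collagen, perlecan (Hspg2, 1.25 ± 0.19), Lamb3 (3.14 ± 0.65) and the nidogens Nid1 (0.98 ± 0.30) and Nid2 (0.81 ± 0.28) were higher in control males and Lama3 was lower (−1.81 ± 0.53). Of 12 fibril partners, Bgn (0.91 ± 0.20) and Tnc (1.0 ± 0.35) were higher, and Lum (−2.54 ± 0.51), Postn (−1.66 ± 0.36) and Dcn (−0.79 ± 0.24) lower. Of 8 collagen receptors, Itgb1 was higher (0.36 ± 0.12) and Itga10 (−1.55 ± 0.25) and Itga11 (−1.83 ± 0.36) were lower. Of 14 genes of TGF-beta signalling, a pathway that drives collagen synthesis, those higher included Tgfb1 (0.96 ± 0.23), Ltbp2 (0.96 ± 0.26) and Smad2 (0.42 ± 0.12), and Ltbp1 was lower (−1.09 ± 0.28). In both knockouts Adamts3, P4ha3, P3h3, P3h4, Loxl3, Mmp2, Mmp3, Mmp14, Itga10, Lum, Postn and Dcn were also called lower in males. Genes called higher in males included Timp4, Mmp12, Lama2 and Ltbp2 in Pparg knockouts, and Sparc, Mrc2, Lamb3 and Smad2 in Tbet knockouts. Of all genes, 3.59% were called higher and 5.18% lower in Pparg knockouts, and 3.93% and 5.38% in Tbet knockouts.

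Cell type markers moved with sex as well, and their part in the collagen differences was not tested. The 6 mural cell markers summed to between 976 and 9889 CPM in females and between 602 and 1244 CPM in males, with Acta2, Myh11 and Tagln lower and Rgs5 and Notch3 higher in control males. The 6 endothelium markers summed to between 398 and 1291 CPM in females and between 1140 and 2126 CPM in males. Over all genotypes, macrophage markers had a median sum of 816 CPM in females and 1134 CPM in males, mesothelium markers 439 and 124 CPM, adipocyte markers 19212 and 24433 CPM, and stromal progenitor markers 771 and 634 CPM. By genotype, the macrophage medians were 629 and 1134 CPM in controls, 885 and 1523 CPM in Pparg knockouts and 952 and 915 CPM in Tbet knockouts. Those of stromal progenitors were 730 and 649 CPM, 756 and 729 CPM, and 878 and 602 CPM. None of the markers in these 6 lists was at 0 in all libraries of a group.

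No collagen gene passed the test for either knockout against controls in either sex. In Pparg knockout females 0 of 39 members were called, against 0.0168% of all genes (0.0112% higher and 0.00561% lower), and 3 had an unadjusted p under 0.05 (11.9% of all genes did). In Pparg knockout males 0 were called, against 0%, and 1 had an unadjusted p under 0.05 (2.55% of all genes). In Tbet knockout females 0 were called, against 1.22%, and 5 had an unadjusted p under 0.05 (17.3%). In Tbet knockout males 0 were called, against 0.00561%, and 2 had an unadjusted p under 0.05 (4.38%). DESeq2 and both limma fits also called 0 members in each of these 4 comparisons. Both knockouts were compared with the same control libraries.

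The precision differed by member. The SE of the log2 fold change ranged from 0.20 to 1.35 in Pparg knockout females, with a median of 0.41. The 95% interval lay within a 2-fold change either way for 13 members in Pparg knockout females, 16 in Pparg knockout males, 13 in Tbet knockout females and 17 in Tbet knockout males. Col1a1, Col1a2, Col3a1, Col5a1, Col5a2, Col6a1, Col6a6 and Col20a1 were among them in all 4. For Col1a1 the interval ran from −0.42 to 0.85 and for Col3a1 from −0.84 to 0.34 in Pparg knockout females, and from −0.29 to 0.97 and from −0.73 to 0.45 in Tbet knockout females.

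The members with the smallest p in Pparg knockout females were Col6a2, a type VI chain (0.67 ± 0.25, adjusted p = 0.304), Col11a2 (−1.21 ± 0.46, 0.319) and Col6a1 (0.45 ± 0.20, 0.387). Col6a2 had 563, 664, 445 and 971 CPM in those females and 273, 498, 388 and 489 CPM in control females, so the groups overlapped. In Pparg knockout males they were Col14a1 (0.60 ± 0.28), Col12a1 of fibril surfaces (−1.26 ± 0.75) and Col4a2 (−0.48 ± 0.29), all with an adjusted p of 1.

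In Tbet knockout females they were Col18a1 (0.59 ± 0.21, adjusted p = 0.157), Col8a1 (0.71 ± 0.27, 0.177) and Col5a3 (1.15 ± 0.52, 0.257). Col18a1 had 192, 215, 196 and 227 CPM there and 104, 186, 123 and 159 CPM in control females, with no overlap. Within batch 1 alone Col8a1 (1.41, adjusted p = 0.0264), Col5a3 (2.50, 0.00781) and Col4a5 (−1.19, 0.0357) were called, and within batch 2 alone Col5a3 had −0.59. Col8a1 was also called with a batch term in each sex (0.80, adjusted p = 0.0424). Those batch 1 differences include control female replicate 1, which had the lowest Col8a1 (4.38 CPM), Col5a3 (62.7 CPM) and the highest Col4a5 (74 CPM) of its group.

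In Tbet knockout males they were Col24a1, a fibrillar collagen of bone (3.84 ± 1.28), Col17a1 (1.12 ± 0.40) and Col7a1 (1.06 ± 0.61), all with an adjusted p of 1. Tbet knockout male replicate 4, with its markers of the male reproductive tract, held 8.49 CPM of Col24a1 against 0.405, 0.0711 and 0.189 CPM in the others, and 4.69 CPM of Col17a1 and 14.7 CPM of Col7a1, each the highest of the group. Without it the log2 fold change of Col24a1 was 0.49, and without control female replicate 1 as well it was 0.53.

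**Figure D4:**
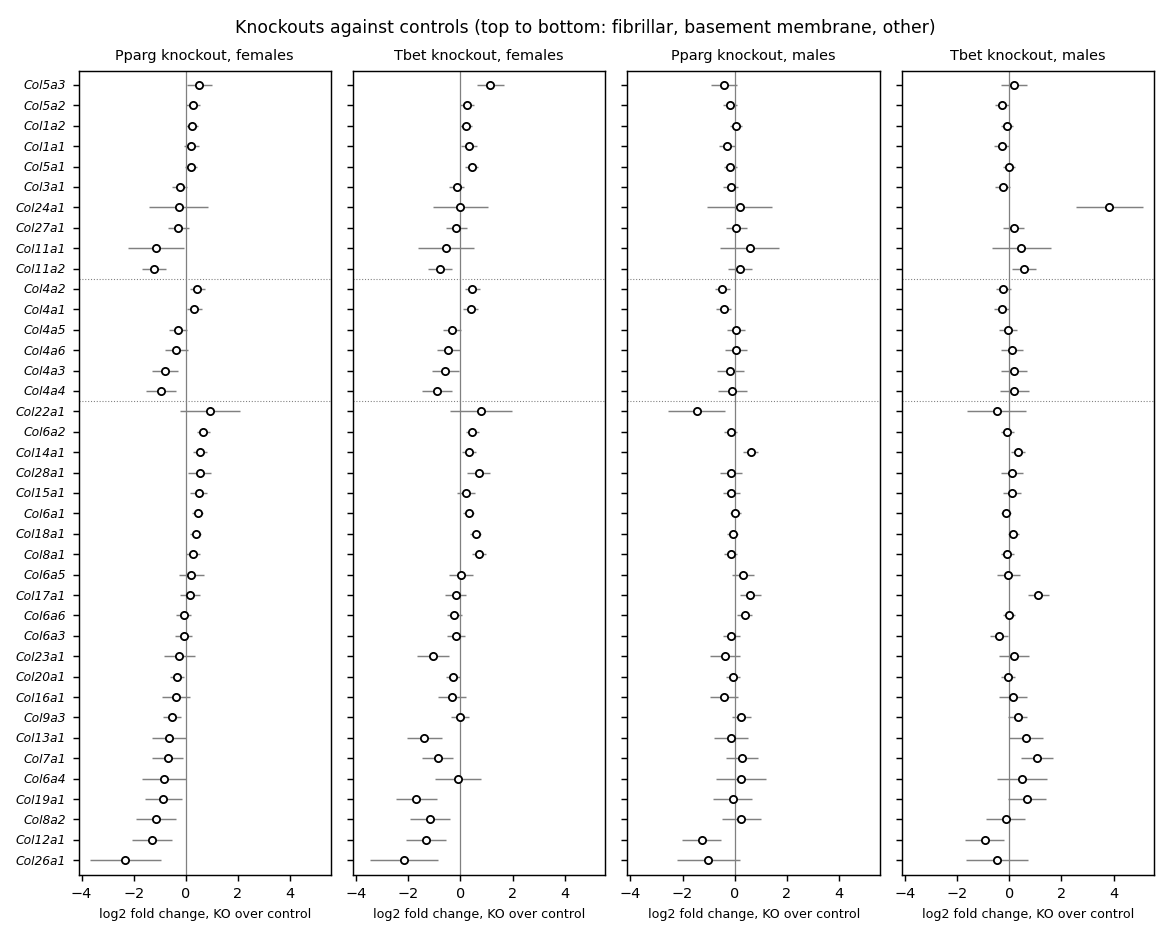
Log2 fold change of each knockout over controls (horizontal axis, with SE bars) of all 39 collagen genes, in females and in males. All points are open, since no adjusted p was under 0.05, and Col24a1 in Tbet knockout males lies farthest out at 3.84.

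Of the genes that act on collagen, 2 rose in Tbet knockout females and none passed the test in the other knockout comparisons. In Tbet knockout females 0.583% of all genes were called higher. Mmp12 rose from 0.114, 0.397, 0.126 and 0.64 CPM in control females to 19.6, 1.16, 14 and 7.65 CPM (5.43 ± 1.22, adjusted p = 0.0381), with no overlap. Thbs2, a matricellular protein that bears on fibril assembly, rose from 37.7, 41.1, 119 and 106 CPM to 202, 227, 197 and 268 CPM (1.56 ± 0.37, adjusted p = 0.0419), also with no overlap. Leaving out a library ended the Mmp12 call in all fits but those without Tbet knockout female replicate 2 or 4 (adjusted p up to 0.107), and the Thbs2 call in all but the fit without control female replicate 3 (up to 0.105). In batch 2 alone Mmp12 had 3.11 (adjusted p = 0.367) and in limma voom 4.18 (0.32), and Thbs2 was called in neither batch alone (adjusted p = 0.145 and 0.129). Without a batch term neither gene was called. Macrophage markers, beside Mmp12, had a median of 0.79 there, with 6 of 6 positive and 0 called, and their part was not tested. Of 14 turnover genes 13 had a positive log2 fold change there (median 0.39), and of 12 fibril partners all 12 did (median 0.32), where the median of all genes was −0.04. These shifts were not particular to Tbet. In Pparg knockout females, against the same controls, 13 of 14 turnover genes (median 0.26) and 10 of 12 fibril partners (0.36) were positive. So were 6 of 6 macrophage markers (0.76), where the median of all genes was −0.02. The shared controls include control female replicate 1, whose macrophage markers summed to 251 CPM, against 776, 488 and 770 CPM in control female replicates 2 to 4. The shifts of these lists are not given without that library, and its part in them was not tested.

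The difference of a knockout's effect between the sexes was tested as an interaction, and no member was called. For Pparg 0 of 39 were called, against 0% of all genes, and 3 had an unadjusted p under 0.05 (6.14% of all genes): Col6a2 (−0.82 ± 0.35, male effect minus female effect), Col4a2 (−0.91 ± 0.41) and Col11a2 (1.41 ± 0.65), each with an adjusted p of 0.805. For Tbet 0 of 39 were called, against 0.00561% of all genes, and 5 had an unadjusted p under 0.05 (11.5%), those of smallest p being Col17a1 (1.30 ± 0.56, adjusted p = 0.388), Col24a1 (3.84 ± 1.66, 0.393) and Col7a1 (1.92 ± 0.85, 0.401). Without the 2 libraries that stand apart these values were 0.66 for Col17a1, −0.12 for Col24a1 and 0.37 for Col7a1. DESeq2 and both limma fits called 0 members for either. By the same test, the sex difference of no member was shown to differ between a knockout and controls.

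Most pairs of chains of the same trimer varied together, to different degrees, once group and batch means were removed. Some chains of different trimers were as close as some of these pairs. Correlations were taken over 24 libraries on log2 CPM after removing group and batch means, for 10 pairs, with two-sided permutation tests. Batch differences that differ between the sexes stay in these values, and their part was not tested. Male minus female, the log2 batch difference was −0.84 for Col8a1 and 1.97 for Col8a2. It was 1.43 for Col4a3 and 1.33 for Col4a4. Col4a1 and Col4a2 gave Pearson r = 0.97 and Spearman rho = 0.95 (p = 1e-05 each, the smallest the resamples can give, adjusted 2.5e-05 and 3.33e-05). Without the 2 libraries farthest from the median of Col4a1, r was 0.96, and it was 0.98 in batch 1 and 0.97 in batch 2. Reads from the shared exon stretch could add to this value, which was not tested.

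Col4a5 with Col4a6 (r = 0.92, rho = 0.85) and Col4a3 with Col4a4 (0.88, 0.80) were nearly as close, as were Col6a1 with Col6a2 (0.90, 0.90), each with an adjusted permutation p of 2.5e-05 for r. Without the 2 farthest libraries these 3 gave r = 0.87, 0.80 and 0.86. Col6a1 with Col6a3 gave r = 0.60 and rho = 0.53 (adjusted permutation p = 0.003 and 0.0102), or 0.47 without the 2 libraries. Col5a1 with Col5a2 gave r = 0.66 and rho = 0.61 (adjusted permutation p = 0.00104 and 0.00322), or 0.52.

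The chains of type I collagen, Col1a1 and Col1a2, gave r = 0.58 and rho = 0.66 (adjusted permutation p = 0.0039 and 0.0013), and 0.62 and 0.54 in batches 1 and 2. Col1a1 with Col3a1, whose products join the same fibrils, gave r = 0.10 and rho = 0.07 (permutation p = 0.655 and 0.757), much as did Col1a1 with Col4a1, chains of different trimers (r = 0.12, rho = 0.08, permutation p = 0.578 and 0.709). Without the 2 farthest libraries those values were −0.01 and −0.03. Col8a1 and Col8a2 went in opposite directions (r = −0.54, rho = −0.58, adjusted permutation p = 0.00831 and 0.00509), with r = −0.40 without control female replicates 1 and 4.

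As a description, the member most like Col6a5 in these residuals was Col6a6, and the reverse (r = 0.75 over 24 libraries). The member most like Col6a4 was Col4a5 (r = 0.79), the one most like Col15a1 was Col4a1 (0.88), and the one most like Col28a1 was Col19a1 (0.70). Closeness was thus not particular to chains of the same trimer. Col5a2 gave r = 0.82 with Col6a1 and 0.74 with Col4a1, and Col6a1 gave 0.72 with Col4a1. Other chains of different trimers went in opposite directions, such as Col4a5 with Col4a1 (r = −0.77).

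**Figure D5:**
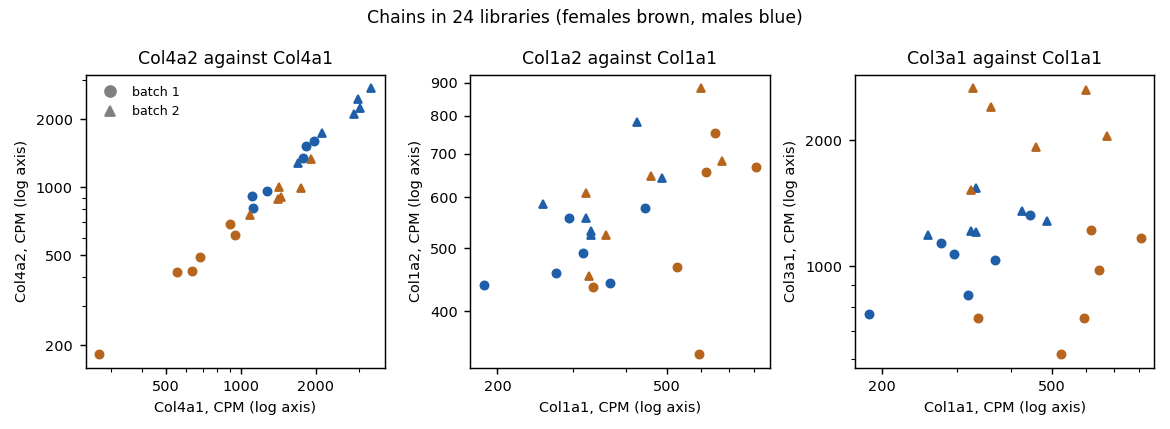
CPM of Col4a2 against Col4a1, Col1a2 against Col1a1 and Col3a1 against Col1a1 in 24 libraries on log axes, females in brown, males in blue, batch 1 as circles and batch 2 as triangles. The type IV chains lie close to a line (r = 0.97 after removing group and batch means), and Col3a1 shows no such line against Col1a1 (r = 0.10).

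Collagen levels also differed between the batches. Between batch 2 and batch 1, 20 of 39 members were called higher and 1 lower in the same fit, where 26.0% of all genes were called higher and 25.7% lower (51.7% in all). At an unadjusted p under 0.05 there were 22 members and 56.3% of all genes, and the median of the members was 0.76 on the log2 scale against 0.03 for all genes. Col6a6 differed most in the upward direction (2.37 ± 0.17, 5.15-fold, adjusted p = 5.91e-10). Col5a1 (1.16 ± 0.14), Col14a1 (1.31 ± 0.17), Col4a1 (1.04 ± 0.17) and Col3a1 (0.80 ± 0.16) were higher too, and Col19a1 was lower (−2.41 ± 0.45, adjusted p = 0.00014). Col1a1 (−0.09 ± 0.17, adjusted p = 0.704) and Col1a2 (0.23 ± 0.13, 0.147) were not called. Batches are balanced over the groups, and each comparison above has batch as a term.

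The batch difference moved with transcript length across all genes. The median log2 difference was −0.35, −0.18, −0.02, 0.19 and 0.35 over 5 equal bins of genes by increasing annotated exon length. The members' median exon length was 7621 bases against 3975 for all genes, and 35 of the 39 lay in the longest 2 bins. The fourth bin held 14 members, and 37.7% of its genes were called higher in batch 2 and 16.5% lower. The longest bin held 21 members, and 52.2% of its genes were called higher and 8.37% lower. The part of length in the members' batch difference was not tested further. The batch difference also differed between the sexes for 6 members, called by an interaction of batch and sex (18.9% of all genes were called): Col3a1, Col7a1, Col8a1, Col13a1, Col16a1 and Col27a1. Col3a1 was higher in batch 2 by 1.26 in females and 0.34 in males, and Col16a1 by 0.02 and 2.21.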

How the data were processed

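Libraries of total fat RNA were sequenced by the authors, who counted reads per gene with featureCounts and used limma, with GRCm38 and mm10 named as builds, per the submitters' processing notes. No source used here names the aligner, annotation, strand setting or versions. The deposited raw counts cover 27179 genes, of which 1029 have no symbol (0.433% of counts). The deposited log2 FPKM values cover 15764 genes, and the 24 libraries share 9 top values, so they appear scaled to a common distribution; how the authors did this is not stated. They served for levels between genes and for 1 alternative.

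Counts were tested in R 4.3.3 with edgeR 4.0.16 (filterByExpr by group, TMM, robust quasi-likelihood F test), with 6 groups and batch over 24 libraries (17 residual degrees of freedom, biological coefficient of variation 0.404) and Benjamini-Hochberg adjustment over 17824 genes. SE is the log2 fold change over the root of F, and 95% intervals use 17 degrees of freedom. The 9 comparisons are each knockout against controls per sex, males against females per genotype and 2 interactions. The comparison of batches was added after seeing the data. Correlations used log2 CPM with a prior count of 2 and 100000 resamples (scipy 1.17.1). Alternatives used DESeq2 1.42.0 and limma 3.58.1, other filters, size factors, batch terms and libraries. The edgeR step was tested on simulated data.

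The members and lists were chosen with earlier results of these data known. Named are the main chains Col1a1, Col1a2, Col3a1, Col4a1, Col4a2, Col5a1, Col5a2, Col6a1, Col6a2, Col6a3, Col15a1 and Col18a1, every called member (up to 10 rises and 10 falls), the 3 of smallest p where none is called, the 5 highest and 5 lowest by log2 FPKM, and up to 4 called genes with the smallest adjusted p per list and comparison. Others were named after their values were seen. A gene that the rule names is not reported here, though every count includes it. The lists are collagen maturation, turnover and receptors, basement membrane partners, fibril partners, TGF-beta signalling and markers of mature adipocytes, stromal progenitors, mesothelium, endothelium, mural cells, macrophages, epithelium, the male reproductive tract, and cartilage and skeletal muscle. Positions are from a RefSeq gene table for GRCm38 and exons from GENCODE.

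Replicate numbers did not pair libraries: 47 of 60 pairs of same-numbered libraries had a correlation of deviations at or below 0.1 (range −0.636 to 0.586). No pair of libraries of a group differed by as little as sampling noise (chi-square per degree of freedom at least 18.8). For control female replicate 1 the title (batch 1) was followed over the source name (batch 2). Between the sexes, the source name's batch ended the edgeR calls of Col14a1, Col27a1 and Col7a1 in controls (adjusted p = 0.103, 0.0687 and 0.0579). It also ended those of Col28a1 in Pparg knockouts (0.0596) and of Col14a1 and Col4a2 in Tbet knockouts (0.118 and 0.0752).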

Additional observations from a re-analysis of the deposited data

Results flagged for a closer look

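A library was singled out where its gap to the nearest of the other 3 of its group took up most of the group's range, by Dixon's test at 95%. Of 168 groups of 4 tested, over 28 members, 10 had such a library, and chance gives about 1 in 20. In control female replicate 1, Col12a1 was 99.7 CPM against 8.21 to 10.6 CPM. In control male replicate 1, Col22a1 was 7.31 CPM against 0.501 to 0.988 CPM. Tbet knockout male replicate 4 stood out for 3 genes: Col24a1 at 8.49 CPM (others at most 0.405), Col7a1 at 14.7 CPM (at most 3.55) and Col22a1 at 5.29 CPM (at most 1.14). In Pparg knockout male replicate 4, Col4a4 was 38.4 CPM against 4.21 to 6.17 CPM, and in Pparg knockout male replicate 1, Col17a1 was 1.18 CPM against 1.86 to 1.97 CPM. Among Tbet knockout females, replicate 2 had 481 CPM of Col6a3 (283 to 294 in the others), and replicate 3 had 0.696 CPM of Col11a2 (3.37 to 3.82) and 18.8 CPM of Col8a1 (13.2 to 13.6).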

How the results depend on the processing

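Without a batch term, 7 members were called between control sexes (16 in the report), 2 in Pparg knockouts (5) and 3 in Tbet knockouts (8). With only the compared groups in the fit the counts were 9, 2 and 13. Batch 1 alone gave 10 calls in Pparg and 1 in Tbet knockouts, and batch 2 alone 9 in controls, 0 in Pparg and 5 in Tbet knockouts. DESeq2 gave 10 and 13 in the knockouts. Leaving out a library gave 10 to 18 in controls, 2 to 8 in Pparg and 2 to 8 in Tbet knockouts. Among alternatives chosen after seeing the data, a batch term in each sex gave 15 and 13 in the knockouts, leaving out control female replicate 1 and Tbet knockout male replicate 4 gave 11 in Pparg knockouts, and leaving out the 8 libraries with the most epithelium marker signal (172 to 1340 CPM) gave 1 and 5. In Tbet knockout females against controls, batch 1 alone gave 3 calls and a batch term in each sex 1, where the report has 0. All other knockout and interaction counts stayed at 0. With the replicate number as a block in place of batch the counts were 16, 5 and 7 between sexes and 0 elsewhere, so no count moved by over 1.5 times. With only group means removed, r was 0.90 for Col5a1 and Col5a2, 0.81 for Col6a1 and Col6a3, −0.019 for Col1a1 and Col3a1 and −0.018 for Col1a1 and Col4a1. Without the 2 farthest libraries these pairs gave −0.011 and −0.035. Col5a3 in Tbet knockout females turned to −0.59 in batch 2 alone, and the Tbet interaction of Col24a1 to −0.12 without the 2 libraries that stand apart. The causes of these changes were not tested, and the shares of all genes called under each alternative are not given beside the counts. Of 1997 values under alternatives, of single genes and of the median of the members, 1800 were kept, and 182 single-gene values were no longer called. A gene was kept if its direction and side of the threshold stayed. Genes not called in the report thus count as kept where they stay uncalled, and calls between batches are included. The number kept therefore does not measure how stable the sex calls were. A median was kept if it moved by under 0.397, its pooled SD within groups. Members under about 2 CPM rest on few counts.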
